A study of Rattus norvegicus with 24 samples.

Results

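The kinases that drive RNA polymerase II from initiation into elongation, their cyclins and the inhibitor Hexim1 were described in the urethra of rats after simulated vaginal delivery (SVD). These were 9 genes of the 32883 in the table, namely Cdk9 with Ccnt1 and Ccnt2, Cdk12 and Cdk13 with Ccnk, Cdk7 with Ccnh, and Hexim1. They were taken by gene symbol, each symbol had 1 row, and all 9 passed the filter on low values (a mean of 2 or more normalized gene counts across samples), as did 16287 genes in all. The identifiers in the table are ENSRNOG00000006000 for Cdk12, ENSRNOG00000013620 for Cdk13, ENSRNOG00000006985 for Ccnk and ENSRNOG00000053054 for Ccnt1. The set was selected on measured values, since Ccnt1 and Cdk12 had been higher in cell-treated urethras at 3d, so the comparisons of cells with saline at 3d, and of 3d with 7d, are given for these 9 genes as descriptions without a test.

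All 24 urethras came from female Sprague–Dawley rats of 12 weeks, and all had undergone SVD, which combined pudendal nerve crush with vaginal distension. After 1 h the animals received an aortic injection of saline, of 500000 allogeneic mesoangioblasts (MABsallo), which are vessel-derived stem cells from hindlimb muscle, or of mesoangioblasts that also overexpress vascular endothelial growth factor (MABsallo-VEGF). Urethras were harvested at 3d or 7d, with 4 samples in each of the 6 groups. The labels give the genotype as WT for saline and MABsallo and as VEGF OE for MABsallo-VEGF, and they mark MABsallo-VEGF replicates 6 and 7 at 7d as recovery. The methods give a lentiviral GFP and luciferase reporter under the CMV promoter for tracking the cells. For MABsallo-VEGF they give a lentiviral vector under the SFFV promoter that expresses VEGF and a truncated CD34. The study also calls MABsallo untransduced, and which cells of these samples carried the reporter is not clear from the methods. No uninjured urethra was analysed here, so saline is the injured control.

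RNA polymerase II pauses shortly after it starts a gene. Release from the pause needs P-TEFb, the kinase Cdk9 bound to cyclin T1 or T2 (Ccnt1, Ccnt2), which Hexim1 and the 7SK RNA hold inactive. Cdk12 and Cdk13, each bound to cyclin K (Ccnk), phosphorylate the tail of the polymerase along the gene body and keep long genes from ending early, and Cdk7 with cyclin H (Ccnh) acts earlier, within the initiation factor TFIIH, and activates other kinases of the family.

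The libraries were 3ʹ mRNA libraries of 2170695 to 10166052 reads, with 2170695 to 4491900 reads in the cell-treated groups at 3d, 4851797 to 5249467 in saline at 3d, and at least 5244129 at 7d. Of the reads, 12.1 to 20.7% fell on AY172581.24, a gene named after a rat mitochondrial genome sequence, in MABsallo at 3d and 15.6 to 20.6% in MABsallo-VEGF replicates 1 to 3 at 3d. The share was 3.46% in MABsallo-VEGF replicate 4 and 7.31% in saline replicate 6 at 3d, 0.409 to 2.11% in the other saline samples at 3d, and at most 1.14% at 7d. MABsallo-VEGF replicate 4 and saline replicate 6 at 3d thus stood apart from their groups, and the 3d values of Cdk7, Cdk12 and Cdk13, their ratios to their cyclins and the counts of genes at 3d are also given for the 22 samples without both. Their shares were the lowest with cells and the highest in saline at 3d, so leaving them out can widen the differences between cells and saline. Smooth muscle genes (Acta2, Myh11, Cnn1, Tagln and Des) summed to 22471 to 287378 normalized gene counts over the samples, and striated muscle and urothelial markers were detected in each group. Both cell treatments were compared with the same saline samples. In bulk tissue, fewer cells of a type and less RNA per cell cannot be told apart.

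Cdk12, which keeps long genes transcribed to their end, was among the members whose values differed most between groups. In saline at 3d its normalized gene counts were 1791, 180, 854 and 1038 in replicates 6, 8, 9 and 10. MABsallo at 3d gave 4842, 2363, 2677 and 2566 in replicates 1 to 4, and MABsallo-VEGF gave 3569, 2959, 3642 and 1309. The 4 MABsallo samples lay above all 4 saline samples, whereas MABsallo-VEGF overlapped with saline through replicate 4 and saline replicate 6. Relative to saline at 3d, the log2 fold change on log2(normalized gene count + 1) was 2.02 ± 0.47 (SE, n = 4 per group) for MABsallo and 1.86 ± 0.47 for MABsallo-VEGF. With the 22 samples it was 2.45 and 2.63, and without saline replicate 8, the lowest sample, it was 1.35 and 1.19.

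Cdk13, the closest relative of Cdk12, followed it. Its normalized gene counts in saline at 3d were 410, 23.5, 143 and 183, in MABsallo 1356, 585, 471 and 515, and in MABsallo-VEGF 1184, 917, 1090 and 316. The log2 fold change was 2.38 ± 0.66 (SE, n = 4 per group) for MABsallo, whose samples did not overlap with saline, and 2.62 ± 0.66 for MABsallo-VEGF, where replicate 4 again fell within the saline range. With the 22 samples the values were 2.94 and 3.61, and without saline replicate 8 they were 1.58 and 1.82. Over the 24 samples Pearson's r between Cdk12 and Cdk13 was 0.963, and after the group means were removed it was 0.881. These correlations are descriptions, since the libraries differed in depth and their RNA quality is not given here. On log2 scales, Pearson's r with the number of reads was -0.725 for Cdk12 and -0.749 for Cdk13 over the 24 libraries. Within groups it was -0.165 and -0.211. The part of depth in these values was not tested.

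**Figure D1:**
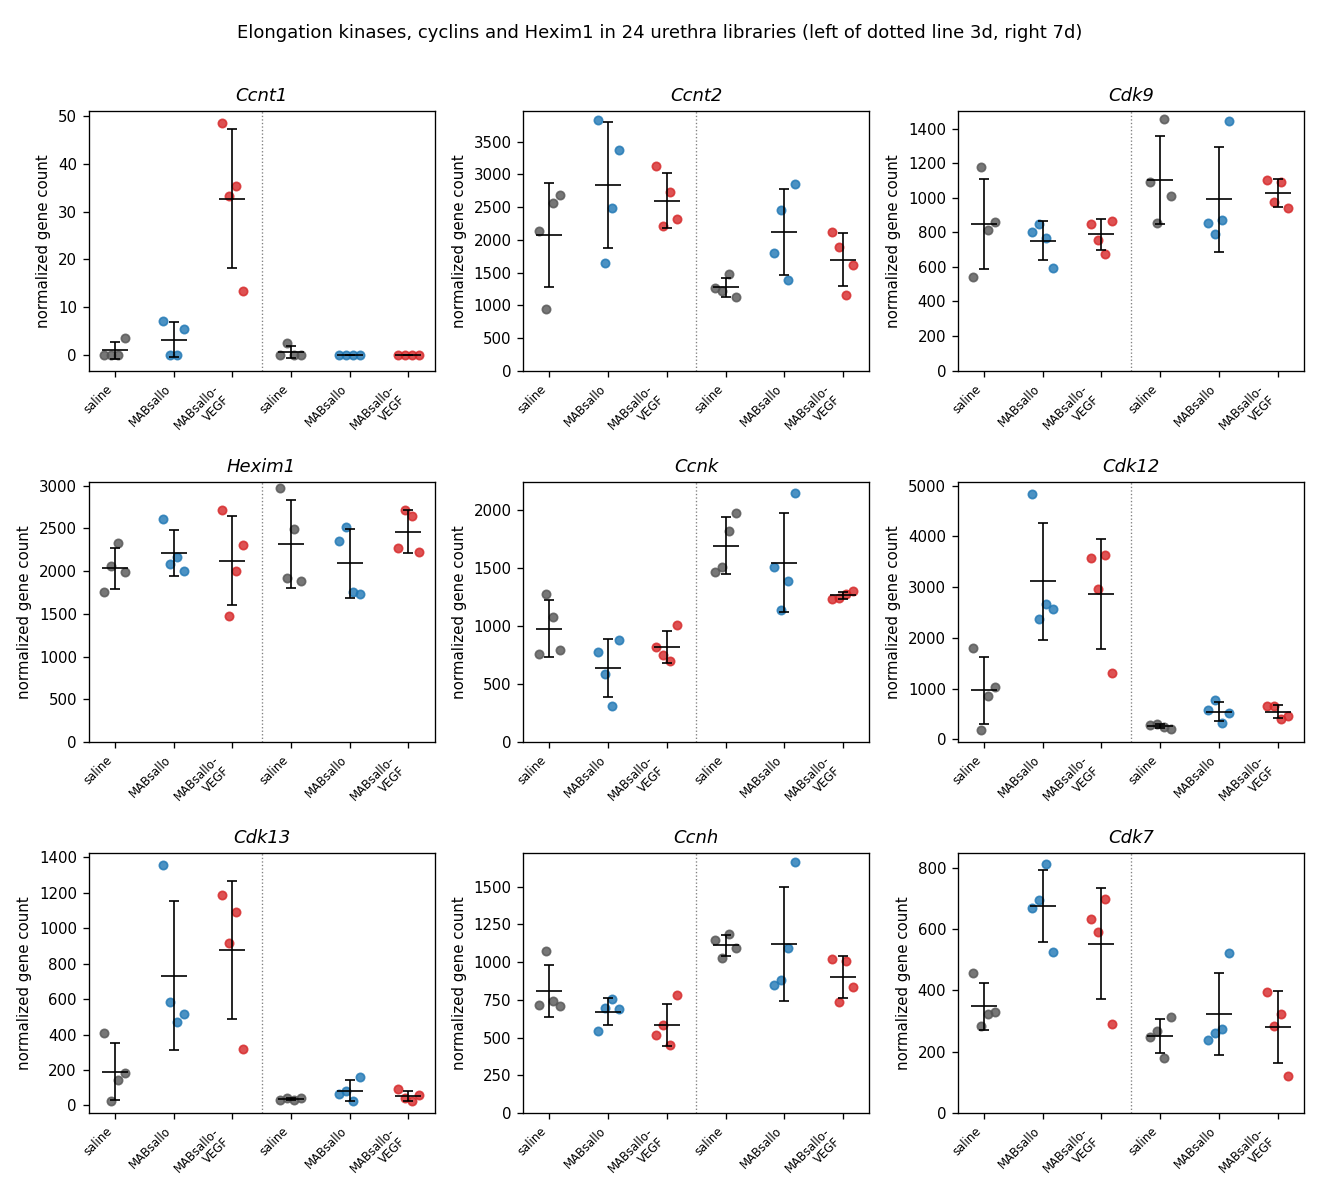
Normalized gene count of each member (vertical axis, linear) in the 6 groups, 3d left and 7d right of the dotted line, with points for the 4 samples of a group and black bars for mean ± SD. Cdk12 and Cdk13 are high in cell-treated samples at 3d, Hexim1 is level across groups, and Ccnt1 is above 10 in the MABsallo-VEGF samples at 3d alone.

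Cyclin K, which both of these kinases require, did not follow them. Ccnk had 758, 1278, 1076 and 795 normalized gene counts in saline at 3d, 774, 585, 314 and 884 in MABsallo, and 816, 750, 696 and 1011 in MABsallo-VEGF. All 3 groups overlapped, with the lowest sample in MABsallo. The log2 fold change against saline was -0.68 ± 0.26 (SE, n = 4 per group) for MABsallo and -0.24 ± 0.26 for MABsallo-VEGF. Over the 24 samples Ccnk and Cdk12 had a Pearson's r of -0.809, and within groups -0.384.

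The start regions of these genes are shown as a description. Whether they bear on the direction of the values was not tested. RefSeq (GRCr8) gave a promoter, 250 bases before to 50 after the start, for 7 of the 9 members, all but Cdk9 and Cdk13. Those of Cdk12 (chr10:83697785-83698084, plus strand), Ccnk (chr6:132854732-132855031, plus strand) and Ccnt1 (chr7:131596889-131597188, minus strand) read, 5ʹ to 3ʹ with matches to the searched motifs in capitals:
Cdk12: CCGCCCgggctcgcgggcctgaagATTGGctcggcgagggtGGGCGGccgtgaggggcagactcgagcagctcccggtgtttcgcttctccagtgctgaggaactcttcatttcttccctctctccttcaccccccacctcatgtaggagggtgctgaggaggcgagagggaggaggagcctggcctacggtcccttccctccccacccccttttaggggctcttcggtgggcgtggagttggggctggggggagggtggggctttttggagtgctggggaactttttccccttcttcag
Ccnk: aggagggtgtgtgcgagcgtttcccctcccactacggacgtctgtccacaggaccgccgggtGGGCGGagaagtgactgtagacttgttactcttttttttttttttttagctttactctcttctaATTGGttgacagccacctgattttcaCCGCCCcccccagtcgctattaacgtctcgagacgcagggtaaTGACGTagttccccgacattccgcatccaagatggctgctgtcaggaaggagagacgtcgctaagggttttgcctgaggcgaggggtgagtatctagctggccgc
Ccnt1: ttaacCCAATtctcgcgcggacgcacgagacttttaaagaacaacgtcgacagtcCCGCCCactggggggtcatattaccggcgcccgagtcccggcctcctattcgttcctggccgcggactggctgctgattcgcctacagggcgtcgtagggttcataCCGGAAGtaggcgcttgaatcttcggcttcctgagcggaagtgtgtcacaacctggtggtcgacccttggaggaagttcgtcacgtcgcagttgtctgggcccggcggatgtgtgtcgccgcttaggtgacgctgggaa

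The motifs searched on both strands were the GC box GGGCGG, the CCAAT box CCAAT, the ETS site CCGGAAG, the E-box CACGTG, the CRE core TGACGT, the TATA box TATAAA and the NRF1 core GCATGCGC, and matches could overlap. All 7 member promoters held a GC box, which 33.1% of the 33469 promoters of this length held, and 6 of 7, all but Cdk7, held a CCAAT box (37.5% of all). Cdk12 had 2 GC boxes and 1 CCAAT box, and Ccnk had the same numbers plus 1 CRE core (7.94% of all). The ETS site (8.75% of all) was found in Ccnt1 and in no other member, and no member held TATAAA (14.2% of all). The GC content was 64.7% for Cdk12, 54.0% for Ccnk and 60.0% for Ccnt1, and the median over all promoters was 51.7%. A match is a description of letters and not a binding site.

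Cdk7, the kinase of TFIIH, was also higher in MABsallo at 3d. Its normalized gene counts were 458, 282, 322 and 331 in saline, 667, 695, 812 and 526 in MABsallo, and 633, 592, 696 and 289 in MABsallo-VEGF. MABsallo lay entirely above saline, and MABsallo-VEGF overlapped with it through replicate 4. The log2 fold change was 0.96 ± 0.34 (SE, n = 4 per group) and 0.61 ± 0.34, and with the 22 samples it was 1.10 and 1.04, both without overlap. Its cyclin Ccnh went the other way in value, with log2 fold changes of -0.26 ± 0.22 and -0.48 ± 0.22, and its 3 groups at 3d spanned 711 to 1070 in saline, 547 to 757 in MABsallo and 454 to 779 in MABsallo-VEGF, all overlapping.

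Ccnt1, one of the 2 T cyclins of P-TEFb, was at the limit of detection. It had 27 reads among 122706104 in all libraries. Of these, 23 fell in MABsallo-VEGF at 3d, with 9, 4, 7 and 3 reads in replicates 1 to 4, or 48.7, 33.3, 35.3 and 13.4 normalized gene counts. Saline at 3d had 1 read, MABsallo at 3d had 2 reads in 2 samples, saline at 7d had 1, and both cell-treated groups at 7d had 0. The ratio of read rates between MABsallo-VEGF and saline at 3d was 35.1 (exact 95% interval 5.69 to 1445), and that between MABsallo and saline at 3d was 3.60 (0.187 to 212), intervals that cover counting error only. Reads were pooled over the samples of a group, and Ccnt1 was chosen for its 3d values, so nothing is read from the ratio for MABsallo-VEGF. For MABsallo at 3d a difference from saline was not detectable at this depth, and the 0 reads at 7d allow up to 3 reads of 26863860 in MABsallo and 3 of 23828175 in MABsallo-VEGF.

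The other P-TEFb genes overlapped between the groups at 3d. Ccnt2, the alternative cyclin of Cdk9, ranged from 941 to 2682 normalized gene counts in saline, 1652 to 3827 in MABsallo and 2217 to 3125 in MABsallo-VEGF at 3d, with log2 fold changes of 0.49 ± 0.30 and 0.42 ± 0.30 (SE, n = 4 per group). Cdk9, the catalytic subunit, gave -0.13 ± 0.23 and -0.06 ± 0.23, values that became 0.04 and 0.12 without saline replicate 8. Hexim1, which holds P-TEFb inactive, had group means between 2032 and 2464 normalized gene counts over all 6 groups, and its log2 fold change was 0.12 ± 0.19 for MABsallo, and 0.04 ± 0.19 for MABsallo-VEGF, values that turned to -0.15 and -0.20 with scaling to the same total. The 424 rows named 7SK summed to at most 0.00189% of the reads in any library. Multi-mapped reads had been discarded, so reads that matched several copies were not counted. From these mRNA libraries nothing is read on the level of 7SK RNA.

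For Cdk7, Cdk12 and Cdk13 all MABsallo samples at 3d lay above all saline samples, as did those of 9.44% of all genes. In MABsallo-VEGF this held for Ccnt1 among the members and for 2.36% of all genes. With the 22 samples it held for the same 3 members in MABsallo (17.8% of all genes) and for Ccnt1, Cdk7, Cdk12 and Cdk13 in MABsallo-VEGF (21.3%), where Ccnh was lower without overlap (11.8%). Nothing is read from these counts, since these comparisons chose the genes. The median log2 fold change of the 9 members was 0.49 for MABsallo and 0.42 for MABsallo-VEGF, while the medians of all genes tested were 0.07 and 0.04. The members' medians were 0.14 and 0.12 without saline replicate 8, and 0.21 and 0.18 with scaling to the same total. Without Ccnt1 they were 0.30 and 0.23, and with Ccnt1 at its bound, at least 2.78-fold higher against a floor of 3 reads per library, the MABsallo-VEGF median stayed 0.42. With both Ccnt1 and Cdk12 left out, for which the set was picked, the middle member was Hexim1, at 0.12 and 0.04. Nothing is read from these medians either.

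**Figure D2:**
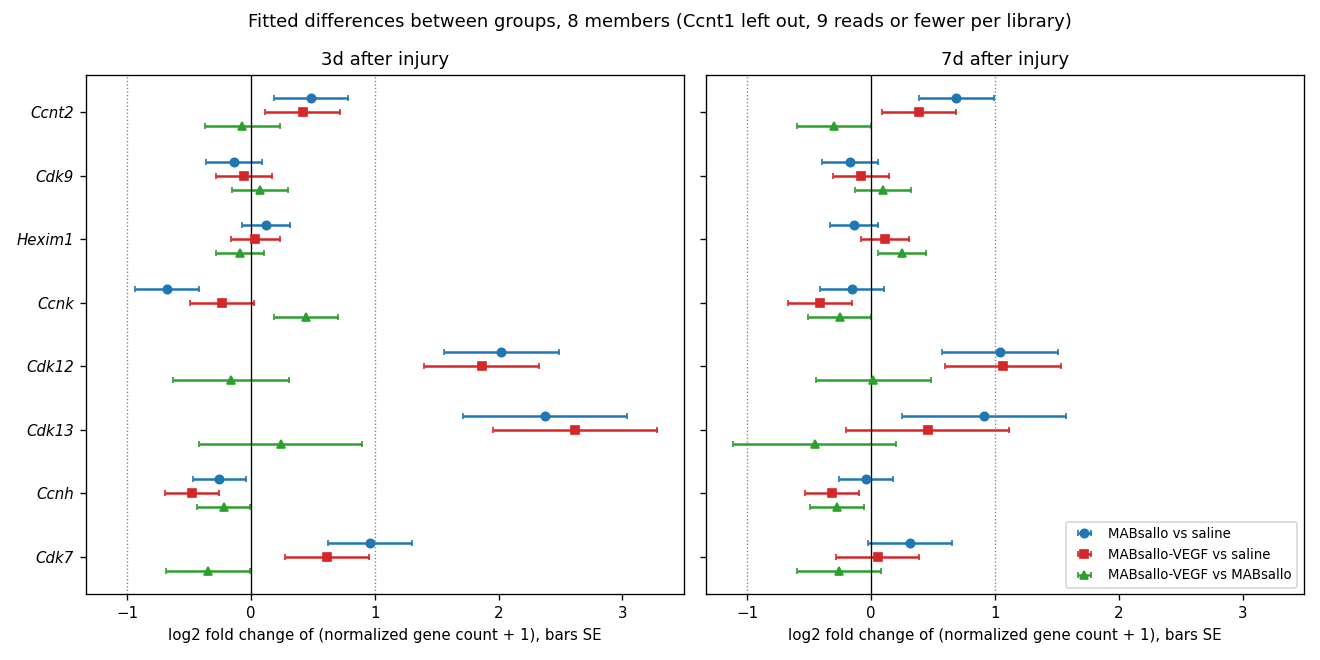
Log2 fold change of (normalized gene count + 1) with its SE (horizontal axis) for 8 members at 3d (left) and 7d (right), by comparison, with dotted lines at -1 and 1. Cdk12 and Cdk13 lie at 1.86 to 2.62 against saline at 3d and near 1 or below at 7d, and the values of MABsallo-VEGF against MABsallo lie between -0.46 and 0.44.

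The levels of Cdk12 and Cdk13 moved with the share of reads on AY172581.24. On log2 scales, Pearson's r over the 24 libraries was 0.969 for Cdk12 and 0.970 for Cdk13, within groups it was 0.911 and 0.868, and over the 12 libraries of 7d it was 0.846 and 0.788. It was -0.832 for Ccnk, -0.818 for Ccnh, 0.793 for Cdk7, -0.674 for Cdk9 and -0.182 for Hexim1 over the 24 libraries. The sample with the highest Cdk12, MABsallo replicate 1 at 3d, had the largest share, 20.7%, and the lowest Cdk12 at 3d, saline replicate 8, went with the lowest share at that time, 0.409%. When the values were scaled to the total without the AY172581 genes, an alternative chosen after seeing the data, the Cdk12 log2 fold changes were 2.01 and 1.85. The part of this share in the results was not tested.

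**Figure D3:**
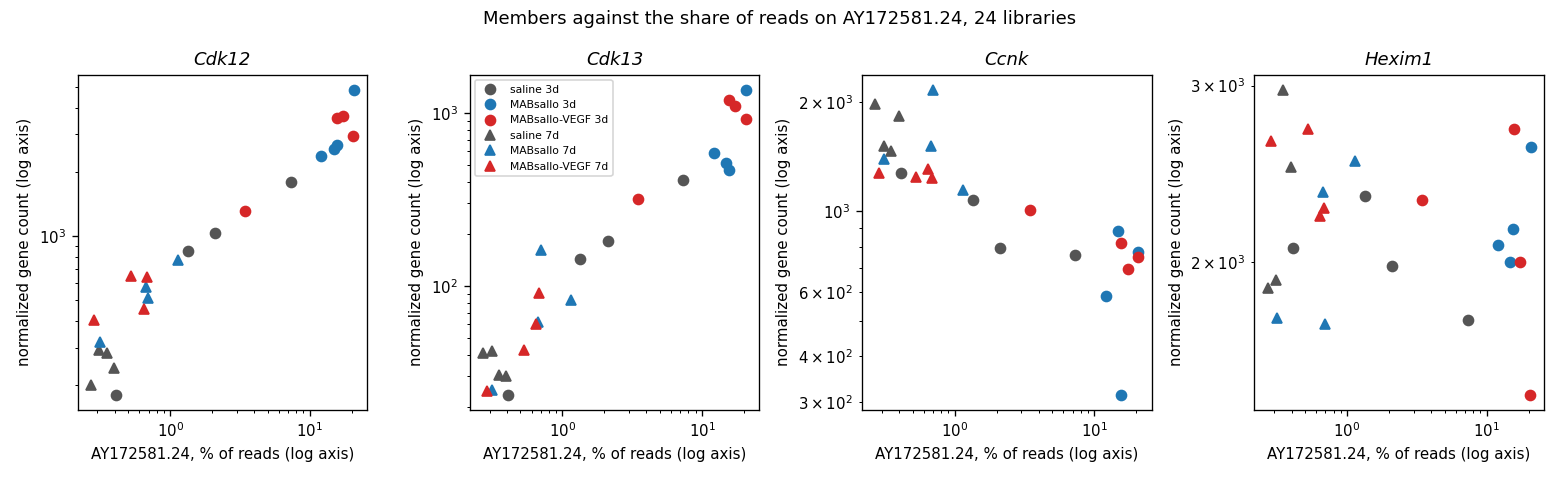
Normalized gene count of Cdk12, Cdk13, Ccnk and Hexim1 (vertical, log axis) against the percent of reads on AY172581.24 (horizontal, log axis) in the 24 libraries, coloured by treatment, circles for 3d and triangles for 7d. Cdk12 and Cdk13 are higher at larger shares both within 3d and within 7d, Ccnk is lower at high shares, and Hexim1 is spread without order.

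Markers of some other cell types also differed in value at 3d. In MABsallo against saline, 9.4% of all genes passed as raised and 2.86% as lowered. All 4 mast cell markers had lower values in MABsallo than in saline, with 3 passing the test (Cpa3, Tpsb2 and Hdc, the last at 0 in all 4 MABsallo samples), and their summed level was 230 to 369 in MABsallo, 178 to 608 in MABsallo-VEGF and 523 to 1878 in saline. All 5 macrophage markers were lower in value and 3 passed (C1qa, C1qb and Csf1r), with sums of 660 to 6456, 2455 to 9360 and 7572 to 16153. The 3 satellite cell markers were higher in value and Pax7 passed, with sums of 334 to 1259, 353 to 983 and 186 to 882. All 4 striated muscle markers measured were higher in value and Tnnt3 passed, with sums of 62971 to 279684, 76237 to 144418 and 29702 to 141096. All 4 Schwann cell markers were lower in value and none passed, with sums of 802 to 1758 in MABsallo, 2266 to 9260 in MABsallo-VEGF and 2555 to 29985 in saline. The mast cell, macrophage and Schwann cell sums of MABsallo each lay below saline without overlap. The share of other gene sets without overlap was not computed, so nothing is read from this. All 5 urothelial markers were higher in value and none passed, with sums of 9661 to 27321, 1250 to 27830 and 772 to 16536. Smooth muscle markers and pericyte and mesoangioblast markers went both ways in MABsallo, with median log2 fold changes of -0.10 and -0.17. The red cell and endothelial markers measured were all lower in value, with medians of -1.06 and -0.50. No marker of these lists passed. In MABsallo-VEGF against saline no marker passed, where 0.0307% of all genes were raised and 0% lowered. There too the mast cell, macrophage and Schwann cell markers were all lower in value. The satellite cell, striated muscle and urothelial markers were all higher. The part of these differences in the kinase values was not tested.

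To see whether a kinase and its own cyclin shifted together, the log2 ratio of each kinase to its cyclin was taken within each library, which does not depend on how libraries were scaled beyond the pseudocount of 1. The difference between MABsallo and saline at 3d was 2.70 for Cdk12 to Ccnk, 3.06 for Cdk13 to Ccnk and 1.22 for Cdk7 to Ccnh, each without overlap between the groups. For MABsallo-VEGF these were 2.10, 2.85 and 1.09, each with overlap. Among the 22 samples they were 3.24, 3.73 and 1.41 for MABsallo and 3.09, 4.06 and 1.72 for MABsallo-VEGF, each without overlap. The ratio of Cdk9 to Ccnt2 went the other way in value, -0.62 and -0.48, with overlap. In saline, the Cdk12 to Ccnk ratio averaged -0.38 ± 1.75 (SD, n = 4) at 3d and -2.74 ± 0.45 at 7d, so that the difference between the days in saline alone was 2.35, or 1.81 without saline replicate 6. These ratios were chosen after the values were seen, and Cdk12 was picked for its 3d values. The share of other gene pairs without overlap was not computed, so nothing is read from the lack of overlap.

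**Figure D4:**
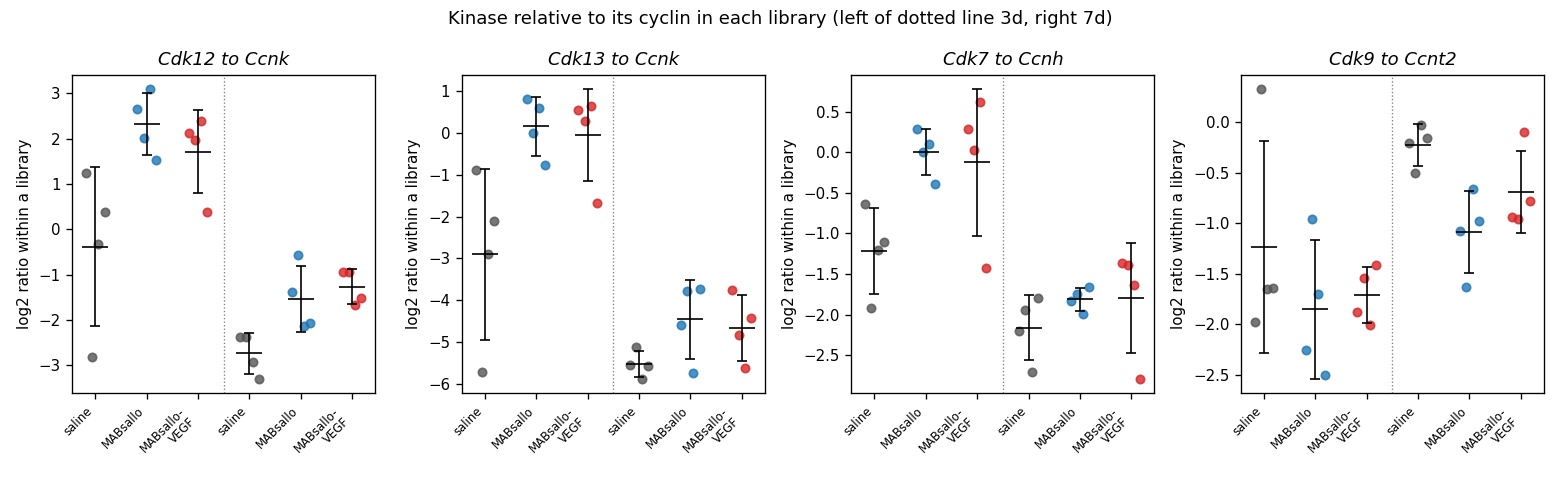
Log2 ratio of a kinase to its cyclin within each library (vertical axis) in the 6 groups, 3d left and 7d right of the dotted line, with points for samples and bars for mean ± SD. The Cdk12 to Ccnk ratio averages 2.32 in MABsallo at 3d, -0.38 in saline at 3d and -2.74 in saline at 7d.

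MABsallo-VEGF was also compared with MABsallo at 3d. The preparations differ in more than VEGF, since the vector also expresses a truncated CD34. The paper further reports higher secretion of several chemokines by MABsallo-VEGF and more signal from these cells in the pelvis at 3d. The comparison thus cannot isolate VEGF. Of the 8 members other than Ccnt1 none passed the test (limma, 0 at an unadjusted p below 0.05, where 6.13% of all genes were), and edgeR and DESeq2 called none of them either. Among all genes, 0.00614% passed. Ccnt1 was chosen for its 3d values and passed the filter on low values through MABsallo-VEGF at 3d, which held 23 of its 27 reads, so its difference is given without a test. Its 4 MABsallo-VEGF samples lay above its 4 MABsallo samples, as for 0.853% of all genes, and the ratio of read rates was 9.74 (exact 95% interval 2.41 to 85.2, counting error only), from which nothing is read. Cdk12, counted among the 8, was chosen for its 3d values too, so its difference is a description. Its log2 fold change was -0.16 ± 0.47 with a 95% interval of -1.13 to 0.81, from which nothing is read. For Cdk13 the log2 fold change was 0.24 ± 0.66 with an interval of -1.12 to 1.60 (limma adjusted p 0.976). Differences of Cdk13 of up to about that size in either direction cannot be told from 0. With the 22 samples the log2 fold changes were 0.18 for Cdk12 and 0.67 for Cdk13.

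At 7d the group means of Cdk7, Cdk12 and Cdk13 were lower than at 3d in every treatment, and those of Ccnk and Ccnh were higher. Cdk12 had 284, 291, 241 and 201 normalized gene counts in saline at 7d, 579, 775, 317 and 515 in MABsallo and 646, 653, 403 and 454 in MABsallo-VEGF. Every cell-treated sample lay above every saline sample. The log2 fold change was 1.04 ± 0.47 for MABsallo (limma adjusted p 0.783, 0.335 to 1 over the settings) and 1.06 ± 0.47 for MABsallo-VEGF (limma adjusted p 0.760, 0.180 to 1), so the difference did not pass the test in either. Groups without overlap, higher with cells, were found for 3.24% of all genes in the first comparison and for 2.92% in the second. The AY172581.24 share at 7d was 0.269 to 0.397% in saline, 0.312 to 1.14% in MABsallo and 0.285 to 0.684% in MABsallo-VEGF.

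Cdk13 at 7d had 30.4, 42.3, 30.1 and 40.9 normalized gene counts in saline, 62.0, 82.8, 25.02 and 162 in MABsallo and 90.7, 42.8, 24.8 and 59.9 in MABsallo-VEGF, from 8 to 39 reads a sample, and the groups overlapped. Its log2 fold changes were 0.91 ± 0.66 (limma adjusted p 0.918) and 0.46 ± 0.66 (limma adjusted p 0.970). Ccnk had 1233 to 1305 in MABsallo-VEGF against 1465 to 1978 in saline, and Ccnh had 739 to 1023 against 1026 to 1186. Both were lower without overlap, as were 3.12% of all genes, and neither passed, with log2 fold changes of -0.41 ± 0.26 (limma adjusted p 0.831) and -0.32 ± 0.22 (limma adjusted p 0.855). Ccnt2 in MABsallo ranged from 1380 to 2851 against 1129 to 1480 in saline, with overlap and a log2 fold change of 0.69 ± 0.30 (limma adjusted p 0.773).

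No member passed in any of the 3 comparisons at 7d, where limma called 0% of all genes in MABsallo against saline, 0% in MABsallo-VEGF against saline and 0% in MABsallo-VEGF against MABsallo. Of the 9 members, 2, 1 and 0 had an unadjusted p below 0.05, and of all genes 6.23%, 6.34% and 2.78% did. EdgeR called no gene in any of the 3, and DESeq2 called 0, 29 and 4 genes, none of them a member. The 2 samples labelled recovery had 646 and 653 normalized gene counts of Cdk12, and the other 2 MABsallo-VEGF samples had 403 and 454. For Ccnt2 these were 2115 and 1891 against 1164 and 1617. With 2 samples on each side these are values without a test.

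Between the days, Cdk12 was 1.54 ± 0.47 higher at 3d than at 7d on the log2 scale in saline, 2.51 ± 0.47 in MABsallo and 2.33 ± 0.47 in MABsallo-VEGF (SE, n = 4 per group). Cdk13 gave 1.81, 3.27 and 3.97 with an SE of 0.66. Cdk12 gave 1.11 in saline and 2.68 in MABsallo-VEGF with the 22 samples, and Cdk13 gave 1.25 and 4.40. Ccnk was lower at 3d by -0.82, -1.34 and -0.64 with an SE of 0.26, and the samples of the 2 days did not overlap in any treatment, which held for 4.92%, 9.33% and 8.01% of all genes in that direction. Across the 6 groups Cdk12 means ran from 3112 ± 1161 (SD, n = 4) in MABsallo at 3d through 2870 ± 1085 in MABsallo-VEGF and 966 ± 662 in saline to 546 ± 189, 539 ± 129 and 254 ± 41.8 in MABsallo, MABsallo-VEGF and saline at 7d. Neighbours in this order overlapped in range, except the last pair. The means spanned 12.2-fold for Cdk12 and 24.4-fold for Cdk13, and 1.21-fold for Hexim1.

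The genes most like Cdk12 over the 24 samples, among the 11139 genes that averaged 50 or more normalized gene counts, were Apc (Pearson's r = 0.984), Tulp4 (0.984) and Tut7 (0.984). For Ccnt1 they were Ercc5 (0.798), Ca6 (0.792) and Klhl24 (0.781), values that rest on a gene with 27 reads. The libraries differed in depth between groups, their RNA quality is not given here, and the values are descriptions.

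Other genes of transcription elongation were taken from 8 lists, and 72 of the 74 genes with a row were tested. In MABsallo against saline at 3d, 9 of 72 passed the test (limma adjusted p below 0.05 and a change beyond 1 on the log2 scale) as raised (12.5%, against 9.4% of all genes) and 1 as lowered (1.39%, against 2.86%), and their median log2 fold change was 0.09, while that of all genes tested was 0.07. The genes that rose were 3 of 12 regulators of P-TEFb and super elongation complex genes, 3 of 18 elongation factors, 2 of 6 Mediator kinase module genes and 1 of 10 genes for phosphatases and readers of the polymerase tail. No gene passed among 8 of TFIIH, 10 of the polymerase itself or 4 of other kinase and cyclin complexes, and the gene that fell was 1 of 4 that depend on these kinases. Without saline replicate 8 at 3d, 4 genes rose and 0 fell, and with only the groups compared in the fit none passed. With the 22 samples 12 rose (16.7%, against 13.8% of all genes) and 2 fell (2.78%, against 4.36%). With scaling to the same total, 7 rose and 2 fell, and among all genes 1102 were raised and 1021 lowered, where 1531 and 466 had been before. That scaling moved the median of all genes to -0.19.

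Among the regulators, Aff1, a scaffold of the super elongation complex, rose by 4.13 ± 0.96 on the log2 scale (SE, n = 4 per group, limma adjusted p 0.0105). Its values overlapped, with 342 to 1463 normalized gene counts in MABsallo and 7.84 to 393 in saline. Mllt3, a subunit that binds acetylated histones, rose by 1.88 (limma adjusted p 0.00888), and Aff4, the scaffold most often found with P-TEFb, rose by 1.045 (limma adjusted p 0.0276). Among elongation factors, Supt16h, a subunit of the histone chaperone FACT, rose by 2.73, the PAF1 complex subunit Cdc73 by 2.30 and Tcea1, which rescues stalled polymerases, by 1.42 (limma adjusted p 0.008245, 0.0140 and 0.0364).

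Med12l and Med13 of the Mediator kinase module rose by 2.77 and 2.40 (limma adjusted p 0.0130 and 0.00702), and Rprd1a, which binds the polymerase tail, rose by 3.66 (limma adjusted p 0.00721). The gene that fell was Fancd2, a DNA repair gene whose transcription is known to need Cdk12, at -3.18 ± 0.87 (limma adjusted p 0.0198), with 0 to 5.47 normalized gene counts in MABsallo and 3.57 to 27.4 in saline. This rested on 1 read in MABsallo and 18 in saline, and edgeR and DESeq2 did not call it. Genes of the basal machinery gave small values, with 0.09 for Ercc3 and -0.51 for Gtf2h5 of TFIIH, -0.29 for Polr2a and -0.38 for Polr2e of the polymerase, and 0.32 for Cdk11b and -0.22 for Cdk10, none of which passed.

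In MABsallo-VEGF against saline at 3d, 0 of 72 genes passed in limma, where 0.0307% of all genes were raised and 0% lowered, and DESeq2 called 7 raised. At an unadjusted p below 0.05 were 16 of 72 (22.2%) and 17.9% of all genes. With the 22 samples 13 rose (18.1%, against 11.4% of all genes, with 2.19% lowered), among them the 9 genes that rose in MABsallo with 24 samples, and none fell. There Supt16h rose by 3.55, Aff1 by 4.69 and Med13 by 2.76 (limma adjusted p 0.000237, 0.000445 and 0.000237). Among all genes, 5 were raised with the 24 samples and 1857 with the 22. The samples left out stood apart in values measured here, so nothing is read from these p-values. At 7d no gene of the lists passed in limma in any comparison, with 6, 6 and 3 of 72 (8.33%, 8.33% and 4.17%) at an unadjusted p below 0.05, beside 6.23%, 6.34% and 2.78% of all genes.

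**Figure D5:**
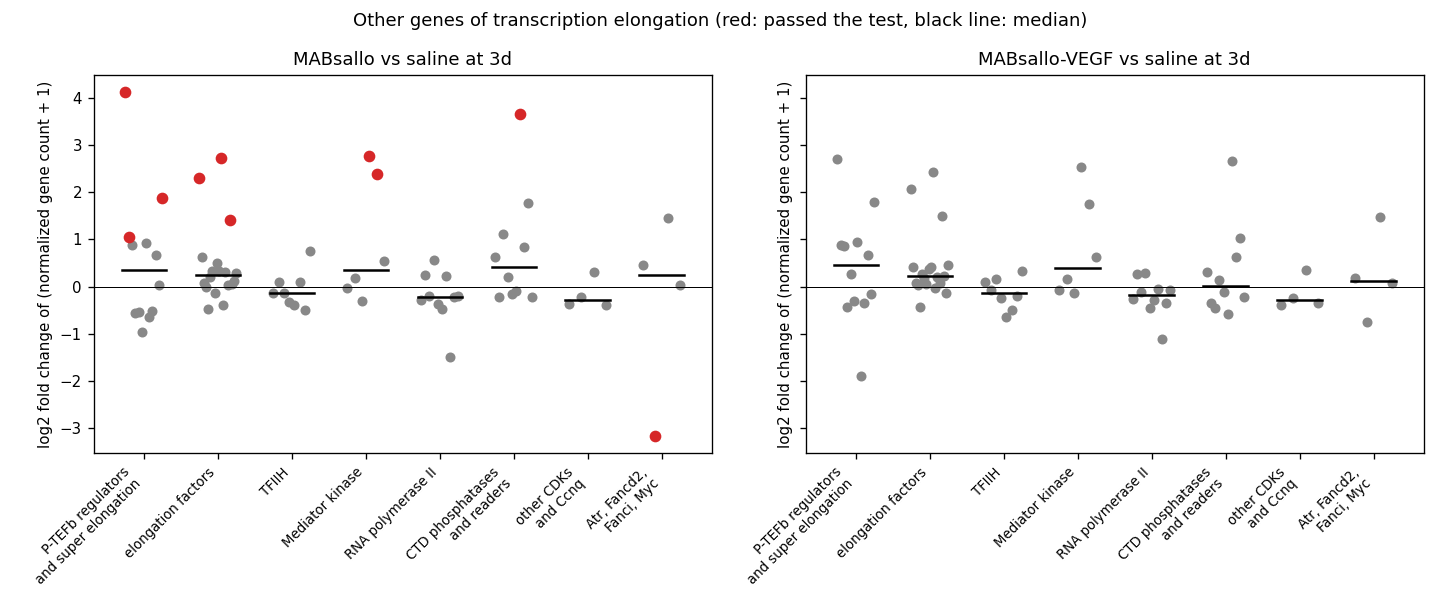
Log2 fold change of (normalized gene count + 1) at 3d (vertical axis) for the 72 tested genes of the 8 lists, MABsallo against saline (left) and MABsallo-VEGF against saline (right), 24 samples, red for genes that passed the test and a black line for the list's median. In MABsallo 9 genes are red above 0 and 1 below, and in MABsallo-VEGF none is red.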

How the data were processed

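Urethral RNA was sequenced by the authors as QuantSeq 3ʹ libraries with reads of 50 bases. Per the labels and the methods, reads were aligned to Rnor6.0 with HISAT2, multi-mapped reads were discarded and genes were counted with HTSeq. The deposited signal is a gene count divided by the DESeq2 size factor of its sample, here called a normalized gene count. In each sample all values were whole multiples of 1 read within a tolerance of 0.001 (100% whole), so reads were recovered. 3ʹ counts are not scaled to length, and levels were compared within a gene.

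The members and lists were chosen with earlier results of these data known. The main test was limma 3.58.1 (R 4.3.3, lmFit and eBayes with a trend), two-sided, on the log2 of the normalized gene count plus 1, with 1 fit of all 24 samples and of the genes whose mean was 2 or more, with Benjamini-Hochberg adjustment over all genes tested. A gene was called at an adjusted p under 0.05 when its log2 fold change also exceeded 1 in size. The labels do not say how replicates were obtained beyond their numbers, so p-values measure the spread between these samples. Replicates differed by more than counting error. The alternatives were edgeR 4.0.16 and DESeq2 1.42.0 on the recovered reads, other pseudocounts, filters, scalings and sample sets, and scaling without the AY172581 genes, the last chosen after seeing the data. The fits were tested on simulated data in which every gene had the same spread beyond counting error and no library stood apart. These data differ from that setting, so the simulation does not cover libraries that stand apart.

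Named were the 9 members, per list the 3 genes with the largest change among those called in MABsallo against saline at 3d or else the 2 with the highest mean, and the 3 genes most correlated with Ccnt1 and Cdk12. Of 79 listed genes, 74 had a row, and Mepce and Polr2h were below the filter. Cdk8, Polr2l, Ccnl1, Ccnl2 and Mcl1 were not analysed here. Promoters came from RefSeq (GRCr8), another build than Rnor6.0, and no gene coordinates are given. The ratios of read rates are exact conditional intervals at 95%.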

Additional observations from a re-analysis of the deposited data

Results flagged for a closer look

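Of 49 groups of 4 samples of a member with more than 3 reads in a sample, 5 held a sample far from the other 3 by Dixon's test, and chance flags about 1 group in 20. In MABsallo at 3d, replicate 1 had 4842 normalized gene counts of Cdk12 against 2363 to 2677 in the others, and 1356 of Cdk13 against 471 to 585. This library had the largest share of reads on AY172581.24, 20.7%. In MABsallo at 7d, replicate 13 had 523 of Cdk7 against 239 to 274, and 1444 of Cdk9 against 791 to 872. In saline at 3d, replicate 8 had 1070 of Ccnh against 711 to 743, and this library had the lowest share of AY172581.24 at that time, 0.409%. The part of these libraries' composition in the values was not tested.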

How the results depend on the processing

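For the pathway genes the alternatives were followed as counts of genes called, and the direction of each gene was not compared over them. Pathway genes raised in MABsallo against saline at 3d numbered 9, 4 to 11 when a sample was left out (4 without saline replicate 8) and 0 with only the groups compared in the fit, where 5 genes of the table passed. Those lowered numbered 1, 0 to 2 when a sample was left out, 0 with a filter at a mean of 10, with edgeR, with DESeq2 and with only the groups compared, and 2 with quantile normalization, with scaling to the same total and with the 22 samples. Pathway genes raised in MABsallo-VEGF against saline at 3d numbered 0, 0 to 11 when a sample was left out (11 without saline replicate 6, 10 without MABsallo-VEGF replicate 4), 3 with a pseudocount of 5, 7 with DESeq2 and 13 with the 22 samples. Members called in MABsallo-VEGF against MABsallo at 3d numbered 0, and 1 with a pseudocount of 5, which was Ccnt1, a gene chosen for its values at 3d. The counts of members called at 7d were 0 under every alternative run.

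Over all genes, 1531 were raised in MABsallo against saline at 3d, 308 without saline replicate 8 and 862 with edgeR. In MABsallo-VEGF against saline 5 were raised, 1024 without saline replicate 6, 1092 without MABsallo-VEGF replicate 4 and 365 with DESeq2. Quantile normalization moved the median log2 fold change of all genes from 0.07 to -0.14 in MABsallo against saline at 3d, with 1253 raised and 975 lowered. Replicate numbers 1 to 4 recur in MABsallo and MABsallo-VEGF at 3d. Same-numbered samples had correlations of 0.222, 0.151, 0.0734 and 0.254 and the others -0.225 to 0.200, so 3 of 4 were above 0.1 and replicate 3 correlated better with another number. Nothing in the labels pairs the samples and whether they are paired was not settled. With a replicate block 0 members were called. Depth limits Ccnt1, at 9 reads or fewer in any library, and Cdk13 at 7d.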
